A study of Homo sapiens with 6 samples.

Results

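The genes described here make cholesterol, move it between membranes, or control that supply through the sterol regulatory element-binding proteins (SREBPs). They are a list of 28 genes, chosen by name and matched to Ensembl identifiers in a count table of 63140 genes. All 28 had enough reads to be tested, among 17427 tested genes. The cells were HEK293T, an immortalised human embryonic kidney line. One group received a duplex of miR-34a by transfection. The other received AllStars, a commercial negative control that the labels call an siRNA in one place and a miRNA in another. Total RNA was taken 18 h later from 3 libraries per group, described as biological replicates of this single line. The labels name no other treatment and no batch.

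Cholesterol is built from acetyl-CoA through mevalonate, farnesyl diphosphate, squalene and lanosterol. SREBF2 encodes the SREBP that chiefly drives this pathway, and SREBF1 encodes forms that lean towards fatty acid synthesis. The precursors are held in the endoplasmic reticulum by SCAP and the INSIG proteins while sterols are plentiful. When sterols fall, SCAP carries them to the Golgi, where the proteases encoded by MBTPS1 and MBTPS2 release the active factor. The gene of miR-34a is a p53 target. Loaded into Argonaute, a microRNA pairs with mRNAs mainly by its seed, bases 2 to 8, and lowers their stability and translation.

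The guide strand is shown with the seed matches found in HMGCS1, DHCR7 and SREBF2, which fell, so that they can be read beside the values. Whether a match had a part in any change was not tested. The guide comes from RefSeq (GRCh38.p14, chr1:9151735-9151756, minus strand) with its seed in capitals, written 5′ to 3′.
miR-34a-5p: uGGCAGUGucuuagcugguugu
The sites below were read from the GENCODE release 29 transcripts on GRCh38, and capitals mark the letters that match the seed or the A opposite base 1. The coordinates are those of the capitals. The sites of HMGCS1 (chr5:43290445-43290452, minus strand, exon 10 of 10) and DHCR7 (chr11:71435166-71435172, minus strand, exon 9 of 9) lie in the 3′ untranslated region (UTR), 679 and 203 nt after the stop codon.
HMGCS1 8mer: aatgacctctgaacagagaaaCACTGCCAt
DHCR7 7mer-m8: caagggaattccgagtgtccagCACTGCCg
SREBF2 had no match in the 3′ UTR of the transcript searched, but 3 in its coding sequence. A 7mer-m8 (chr22:41880774-41880780, plus strand) lies in exon 10 of 19. A 7mer-A1 (chr22:41905605-41905611) and an 8mer (chr22:41905639-41905646) lie in exon 19, ending 46 and 11 nt before the stop codon.
SREBF2 coding 7mer-m8: tgcctggcagttttgggccgggCACTGCCc
SREBF2 coding 7mer-A1: ggcgaccggcgctcctgcaacgACTGCCAg
SREBF2 coding 8mer: gattgttaagctgggtggtggCACTGCCAt
SREBF1, the paralogue of SREBF2, is shown for contrast, since it also holds a coding 8mer (chr17:17816344-17816351, minus strand, exon 12 of 20), which ends 1364 nt before its stop codon.
SREBF1 coding 8mer: gaagcacacaggcgggcacctCACTGCCAc

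The libraries held 24728662 to 36650331 counts. The cell line was checked against a short marker list: of 6 genes named for HEK293 all were tested, while none of 4 hepatocyte genes (ALB, APOA1, TTR, SERPINA1) and neither of a pair of leukocyte genes (PTPRC, CD74) was. Hepatocyte markers summed to 0.0685 to 0.435 CPM per library. Levels are in CPM, a gene's count relative to the TMM-scaled total of its library. Of 4 fibroblast genes 2 were tested, COL1A1 and COL3A1. The fibroblast list summed to 23.3 to 30.5 CPM, nearly all of it COL1A1, with DCN at 0 in every library. The HEK293 genes PAX2 (1.14 to 2.24 CPM) and LHX1 (2.62 to 4.01 CPM) lay below COL1A1 (21.2 to 27.3 CPM), so being tested is a weak check. The HEK293 list summed to 474 to 536 CPM in the control and 422 to 461 CPM with miR-34a. Of its genes NEFL and NEFM, which encode neurofilaments, fell (log2 fold changes of -0.32 and -0.22, edgeR adjusted p = 0.0041 and 0.037), and the part of this in the results below was not tested. In bulk RNA, fewer cells expressing a gene and less RNA per cell cannot be told apart.

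With miR-34a, 4 of the 28 genes fell and none rose: DHCR7, HMGCS1, SREBF2 and MVD. DHCR7 (ENSG00000172893, chr11:71428193-71452868), HMGCS1 (ENSG00000112972, chr5:43289395-43313512), SREBF2 (ENSG00000198911, chr22:41833079-41907308) and MVD (ENSG00000167508, chr16:88651935-88663161) are protein-coding genes, with positions on GRCh38. They belong to the last step of cholesterol synthesis, the entry to the mevalonate route, the controlling transcription factor and the last step before isopentenyl diphosphate. "Fell" and "rose" are used for an adjusted p under 0.05 in the edgeR quasi-likelihood test, with the Benjamini-Hochberg adjustment over all tested genes. By that rule 6.7% of all tested genes fell and 5.38% rose. Among the members the shares were 14.3% and 0%. Among 12951 tested genes with a 3′ UTR searched for seed matches they were 8.42% and 6.73%. The median standard error was 0.07 for the members and 0.10 for all tested genes, so a change of a given size passed more easily among the members. At an unadjusted p under 0.05, 8 members lay lower (13.1% of all tested genes) and 2 higher (11.3% of all tested genes), and the DESeq2 Wald test called 6 members lower and none higher. The median log2 fold change of the members was -0.10 and that of all tested genes -0.00, with 19 members below 0 (50.7% of all tested genes were). The other 24 members had log2 fold changes between -0.20 and 0.28, and standard errors of all members ran from 0.07 to 0.16.

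**Figure D1:**
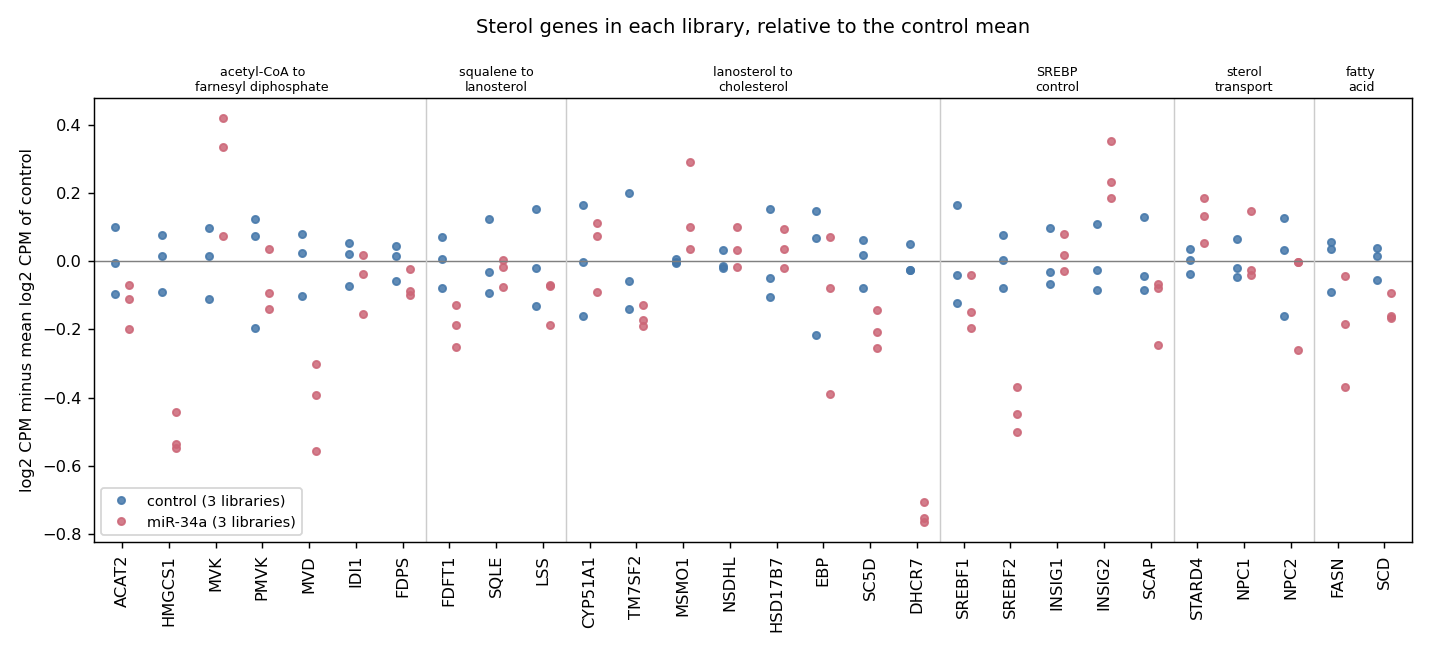
Level of each of the 28 genes in each of the 6 libraries, as log2 CPM minus the mean log2 CPM of the 3 control libraries (vertical axis), with genes on the horizontal axis ordered by role. Blue points are control libraries and red points miR-34a libraries. The red points of HMGCS1, MVD, DHCR7 and SREBF2 stand clear below the blue ones, while most other genes overlap.

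Of the 7 genes that lead from acetyl-CoA to farnesyl diphosphate, 2 fell and 5 did not pass. HMGCS1, the cytosolic synthase that makes HMG-CoA, stood at 138, 128 and 144 CPM in control replicates 1 to 3 and at 100.3, 94.1 and 93.4 CPM in miR-34a replicates 1 to 3. Every miR-34a library lay below every control library. The log2 fold change was -0.51 ± 0.07 (SE), so HMGCS1 fell by 29.8%, with an edgeR adjusted p = 1e-05. Its gene shares 14.95% of its exonic length with an antisense gene (ENSG00000261604) that had 0 counts in all 6 libraries.

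MVD, the decarboxylase that yields isopentenyl diphosphate, stood at 38.1, 43.3 and 41.6 CPM in the control and at 33.2, 27.8 and 31.2 CPM with miR-34a, again with no overlap. MVD had a log2 fold change of -0.42 ± 0.08 (SE), edgeR adjusted p = 0.001. MVD was the gene of the 4 without a miR-34a-5p match of any kind, down to the 6mer ACTGCC, in either its 3′ UTR of 590 nt or its coding sequence.

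MVK, the kinase that acts on mevalonate, went the other way without passing. It stood at 20.9, 24.1 and 22.7 CPM in the control and at 30.1, 23.7 and 28.4 CPM with miR-34a. Replicate 2 of miR-34a fell within the control range, and the log2 fold change was 0.28 ± 0.09 (SE), edgeR adjusted p = 0.055. Without that library it was 0.37 with adjusted p = 0.016, and MVK also passed with DESeq2 size factors (adjusted p = 0.049) or with no filter on low counts (adjusted p = 0.033).

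The other genes of this stretch had overlapping groups. ACAT2, the cytosolic thiolase that joins acetyl-CoA units, had a log2 fold change of -0.13 ± 0.07 (SE). The kinase PMVK, the isomerase IDI1 and the prenyl synthase FDPS lay at -0.07, -0.06 and -0.07. Across these 4 genes the edgeR adjusted p ran from 0.28 to 0.67. ACAT2 shares 33.9% of its exonic length with SOD2-OT1 (0.715 to 1.55 CPM) on the opposite strand, and the libraries do not mark strand. It also shares 26.5% with SOD2 and 9.23% with TCP1 (677 to 818 CPM), both on the opposite strand. In total 14 of the 28 members share exonic sequence with another gene.

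**Figure D2:**
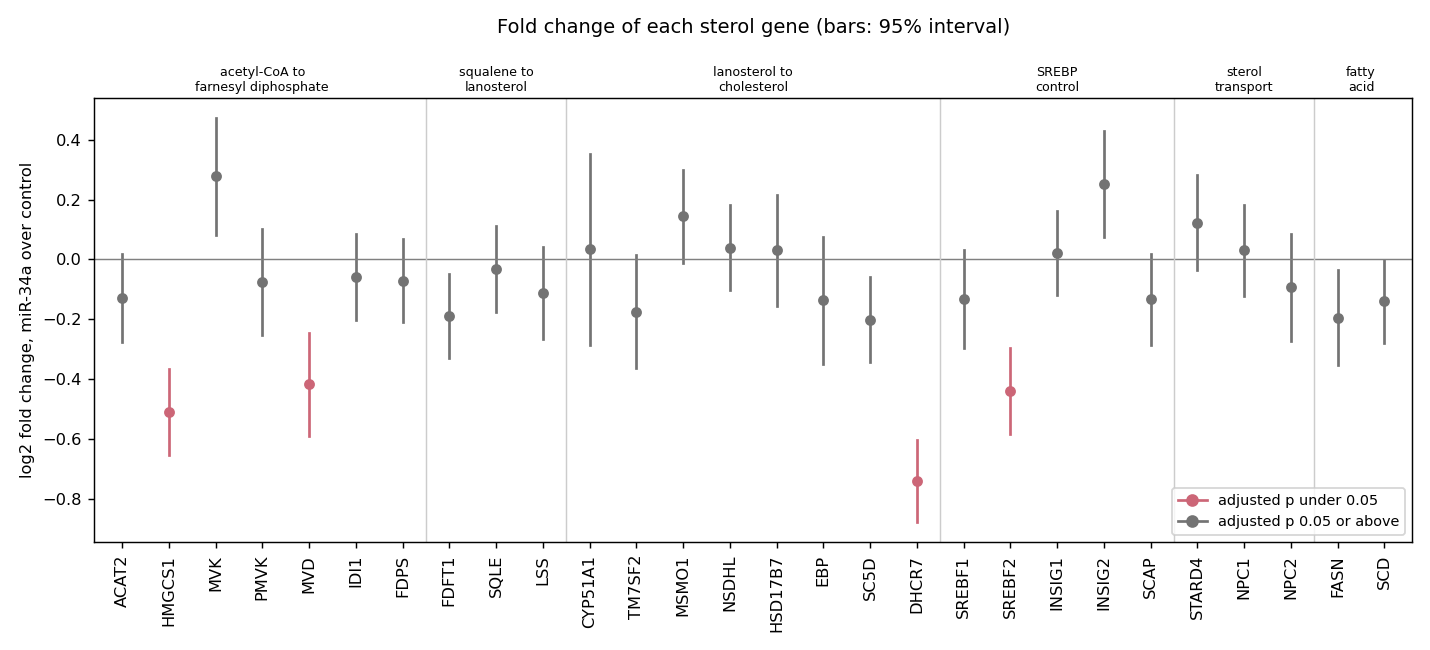
Log2 fold change of each gene, miR-34a over control (vertical axis), with the 95% interval of the edgeR fit as a bar. Genes are on the horizontal axis by role. The 4 genes that fell are red, with DHCR7 lowest at -0.74, and the intervals of most grey genes include 0.

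None of the 3 genes from squalene to lanosterol passed. FDFT1, which makes squalene, stood at 151 to 168 CPM in the control and at 134 to 146 CPM with miR-34a. These ranges do not overlap, and the log2 fold change was -0.19 ± 0.07 (SE), edgeR adjusted p = 0.074. It passed without control replicate 1 (-0.22, adjusted p = 0.04) and in the DESeq2 Wald test (-0.18, adjusted p = 0.042). SQLE, the squalene epoxidase and a rate-limiting enzyme of the pathway, lay at -0.03 ± 0.07 (SE), with a 95% interval of -0.18 to 0.11. LSS, which closes the ring to lanosterol, lay at -0.11 ± 0.07 although its coding sequence holds a pair of 7mer-m8 matches.

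Of the 8 genes from lanosterol to cholesterol, DHCR7 fell and the others did not pass. DHCR7 reduces 7-dehydrocholesterol, the last step of one branch of the pathway. It stood at 149.9, 158 and 149.8 CPM in the control and at 90.6, 89.8 and 93.6 CPM with miR-34a. The libraries within each group differed by far less than the groups did. DHCR7 fell by 40.1%, a log2 fold change of -0.74 ± 0.07 (SE), with an edgeR adjusted p = 1.7e-08.

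SC5D, the desaturase that forms 7-dehydrocholesterol, the substrate of DHCR7, stood at 133 to 147 CPM in the control and at 118 to 127 CPM with miR-34a, with no overlap. The SC5D log2 fold change of -0.20 ± 0.07 (SE) did not pass (edgeR adjusted p = 0.056). It passed in the DESeq2 Wald test (adjusted p = 0.032), with a filter at 1 CPM (adjusted p = 0.047) and without control replicate 2 (adjusted p = 0.039).

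MSMO1, NSDHL and HSD17B7 together remove the methyl groups at carbon 4 of the sterol. Their log2 fold changes were 0.14, 0.04 and 0.03, with edgeR adjusted p-values of 0.25, 0.79 and 0.88. MSMO1 lay between 56.3 and 56.8 CPM in the control and between 57.8 and 69.0 CPM with miR-34a, which do not overlap. The isomerase EBP and the reductase TM7SF2 had log2 fold changes of -0.14 and -0.17 and overlapping groups.

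CYP51A1, the lanosterol demethylase, cannot be read as a level. It had 127 to 182 counts per library, and 79.4% of its exonic length is shared with a same-strand protein-coding gene (ENSG00000285772) that had 0 counts in all 6 libraries. How reads lying in both genes were counted is not given in the sources used here. Its log2 fold change on the reads that were counted was 0.03 ± 0.16 (SE).

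Among the 5 genes of SREBP control, SREBF2 fell and the others did not pass. SREBF2 stood at 154, 161 and 145 CPM in the control and at 119, 108 and 112 CPM with miR-34a. No miR-34a library reached the lowest control library. SREBF2 fell by 26.2%, a log2 fold change of -0.44 ± 0.07 (SE), with an edgeR adjusted p = 7.1e-05.

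SREBF1 stood at 55.6, 64.1 and 52.6 CPM in the control and at 51.6, 49.99 and 55.6 CPM with miR-34a. The groups overlapped, and the log2 fold change was -0.13 ± 0.08 (SE), 95% interval -0.30 to 0.03, edgeR adjusted p = 0.33. The ratio of SREBF2 to SREBF1 CPM within a library was 2.76, 2.52 and 2.75 in the control and 2.30, 2.17 and 2.02 with miR-34a. All 3 miR-34a ratios were lower (exact two-sided permutation p = 0.1, the smallest that 3 libraries against 3 allow, and p = 0.15 adjusted over 3 such ratios). The pairs of genes for these ratios were chosen after their values were seen.

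SCAP, the sterol sensor that escorts the SREBPs, stood at 149, 167 and 144 CPM in the control and at 145, 129 and 146 CPM with miR-34a. SCAP had a log2 fold change of -0.13 ± 0.07 (SE), 95% interval -0.28 to 0.02, edgeR adjusted p = 0.28. INSIG1, itself a target gene of the SREBPs, stood at 249, 255 and 279 CPM in the control and at 255, 264 and 275 CPM with miR-34a. The miR-34a values lay within the control range, with a log2 fold change of 0.02 ± 0.07 (95% interval -0.12 to 0.16).

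INSIG2, the second retention protein, stood at 22.4, 25.5 and 23.3 CPM in the control and at 27.8, 30.2 and 26.9 CPM with miR-34a, with every miR-34a library above every control library. The log2 fold change of INSIG2, 0.25 ± 0.09 (SE), did not pass (edgeR adjusted p = 0.056). It passed with DESeq2 size factors (adjusted p = 0.048), with a filter at 1 CPM (adjusted p = 0.049) and without control replicate 2 (0.31, adjusted p = 0.046). The ratio of INSIG2 to INSIG1 was 0.0835 to 0.100 in the control and 0.0978 to 0.115 with miR-34a (exact two-sided permutation p = 0.2).

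None of the 3 genes of sterol transport passed. NPC1 and NPC2 pass cholesterol out of the lysosome after uptake, and STARD4 carries it through the cytosol. Their log2 fold changes were 0.03, -0.09 and 0.12, with standard errors of 0.07 to 0.09 and edgeR adjusted p-values of 0.85, 0.57 and 0.35. STARD4 lay between 33.7 and 35.5 CPM in the control and between 35.9 and 39.4 CPM with miR-34a.

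The pair of fatty acid genes lay slightly lower without passing. FASN, the fatty acid synthase, stood at 927, 914 and 839 CPM in the control and at 785, 691 and 865 CPM with miR-34a. Its log2 fold change was -0.19 ± 0.08 (SE), edgeR adjusted p = 0.11, and without miR-34a replicate 3, the highest of its group, it passed (-0.27, adjusted p = 0.032). SCD, which makes monounsaturated fatty acids, stood at 996 to 1063 CPM in the control and at 922 to 971 CPM with miR-34a. Its log2 fold change was -0.14 ± 0.07 (SE), edgeR adjusted p = 0.20.

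Counted by the libraries alone, all 3 miR-34a values lay below all 3 control values in 7 of the 28 genes, against 14.2% of all tested genes. They lay above in 3 genes, against 13.1% of all tested genes. The 7 were the 4 that fell with FDFT1, SC5D and SCD, and the 3 were MSMO1, INSIG2 and STARD4. Summed over the 18 synthesis enzymes, CPM ran from 1524 to 1612 in the control and from 1361 to 1435 with miR-34a. This sum holds the 3 enzymes that fell, and the other 15 did not pass. Mean CPM went from 153 to 91.3 for DHCR7, from 137 to 95.9 for HMGCS1 and from 41.0 to 30.7 for MVD. Of the 18 enzymes 13 had a log2 fold change below 0 and 5 above, with a median of -0.09. Over all tested genes 50.7% lay below 0. The sum alone does not show whether levels fell across the pathway, and the share of the other enzymes in it was not tested.

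Levels of different genes were compared per exonic length, as RPKM. SCD stood highest in the control at 193 ± 6.48 RPKM (SD, n = 3), then FASN at 95.4 ± 5.10 and INSIG1 at 71.5 ± 4.33. Apart from CYP51A1, the lowest were MVK at 3.48 ± 0.253 and HSD17B7 at 4.76 ± 0.458 RPKM. DHCR7 went from 36.7 ± 1.11 to 21.95 ± 0.482 RPKM, which moved it from rank 5 to rank 12 of the 28. HMGCS1 went from 29.05 ± 1.68 to 20.4 ± 0.813 RPKM, from rank 9 to rank 15. In the control DHCR7 and NSDHL (35.8 ± 0.698 RPKM) differed by less than their summed SDs, and with miR-34a DHCR7 stood beside SC5D (21.99 ± 0.859 RPKM). SREBF2 stood at 20.3 ± 1.09 RPKM in the control against 7.15 ± 0.743 RPKM for SREBF1.

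**Figure D3:**
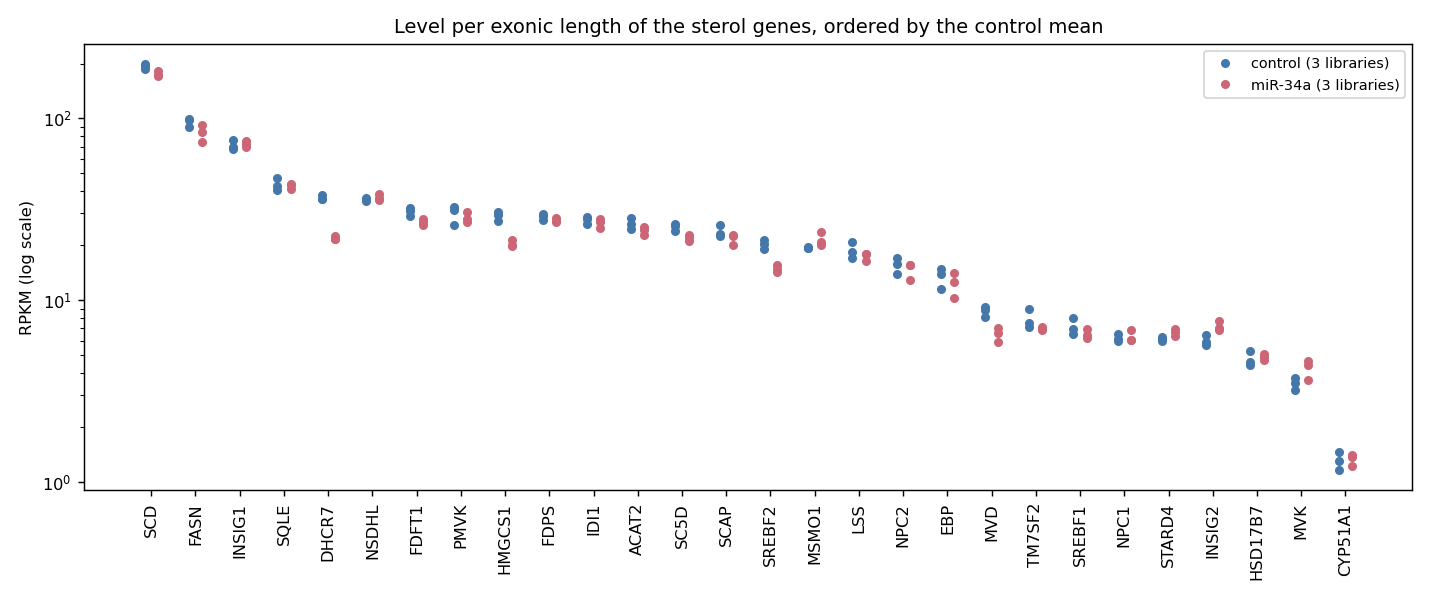
Level per exonic length (RPKM, log scale on the vertical axis) of the 28 genes in each of the 3 control (blue) and 3 miR-34a (red) libraries, ordered by the control mean. SCD, FASN and INSIG1 stand highest, and the red points of DHCR7 drop to the level of SC5D.

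A 7mer or 8mer in the 3′ UTR was found in 4 of 28 members (14.3%), against 20.9% of 12951 tested genes with a classed 3′ UTR. The 4 were HMGCS1 and DHCR7, which fell, and NPC2 and FASN, which did not pass. Among all classed genes, 19.3% of 2710 with such a match fell, against 4.90% of 8944 with no 3′ UTR match. NPC2 holds a 7mer-A1 70 nt after the stop codon (chr14:74476352-74476358, minus strand) and FASN a 7mer-m8 119 nt after it (chr17:82079018-82079024, minus strand). They are shown as the 3′ UTR matches whose genes did not pass.
NPC2 7mer-A1: cagaaagatcagcttagctctgACTGCCAg
FASN 7mer-m8: gggaccctgtccggcccagtgcCACTGCCc
A further 4 members, LSS, INSIG1, STARD4 and SCD, held a 6mer as their strongest 3′ UTR match, and 20 held none.

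A coding 7mer or 8mer was found in 8 of the 28 members (28.6%), against 27.7% of the classed genes. The coding sequence was searched after the values of SREBF2 had been seen. Of these 8, SREBF2 fell, and FDFT1, LSS, SREBF1, SCAP, NPC1, NPC2 and FASN did not pass. Among classed genes with no 3′ UTR match, 8.27% of 641 with a coding 8mer as strongest match fell. The share was 8.09% of 1076 for a coding 7mer-m8 and 4.08% of 687 for a coding 7mer-A1. With a match in neither region it was 4.12% of 5416.

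The RNAduplex energy of miR-34a-5p with the 30 nt shown was -26.1 kcal/mol for the SREBF2 coding 8mer and -24.1 kcal/mol for its 7mer-A1. It was -21.7 kcal/mol for the SREBF1 coding 8mer, -19.5 kcal/mol for HMGCS1 and -18.7 kcal/mol for DHCR7. The energy did not order the genes by their fall: DHCR7 fell most, while NPC2 (-22.1 kcal/mol) and FASN (-20.7 kcal/mol in the 3′ UTR) did not pass. Of the 15 member sites for which an energy was computed (7mers and 8mers of the transcripts searched, without that of FDFT1), the lowest, -26.7 kcal/mol, was that of a coding 7mer-m8 of FASN. Each is a prediction for an isolated pair of short RNAs.

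**Figure D4:**
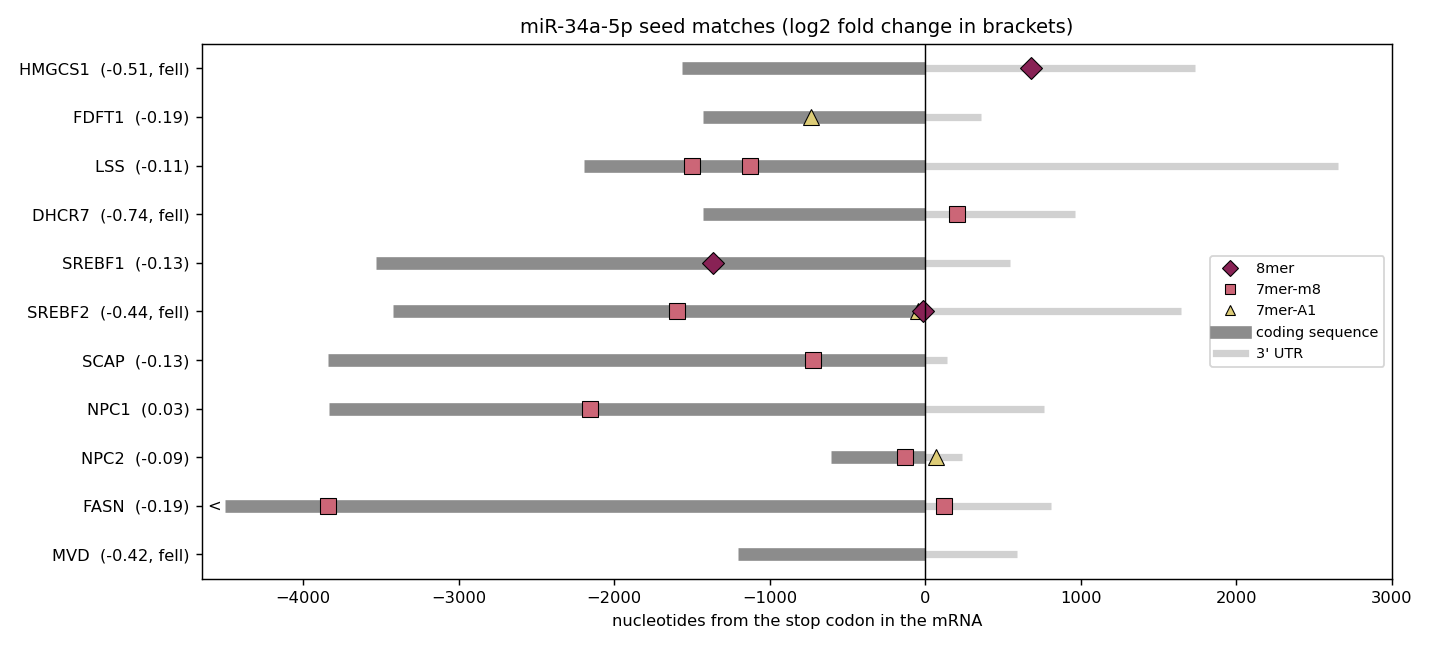
Positions of 7mer and 8mer matches to miR-34a-5p along the mRNAs of the 10 members that hold one, and of MVD, which holds none. The horizontal axis is nucleotides from the stop codon, the dark bar the coding sequence and the light bar the 3′ UTR. The bar of FASN and 1 coding 7mer-A1 continue past the left edge. Log2 fold changes stand beside the names; the SREBF2 8mer lies next to the stop codon.

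The promoters were searched on both strands for the sterol regulatory element TCACNCCAC, to which SREBPs bind, the NF-Y box CCAAT and the GC box GGGCGG. RefSeq promoters (GRCh38.p14, 250 bases before to 50 after the start) were at hand for 24 of the 28 members, but not for ACAT2, FDFT1, SQLE and FASN. The sterol element in these letters was found in SREBF2 only, starting 133 bases before the start site (promoter chr22:41832855-41833154, plus strand). Among 27305 genes, 1.39% held it. It is shown since SREBF2 is both a member that fell and a gene reported to be driven by its own product.
SREBF2 sterol element: atgacgcgccaTCACCCCACgcaccgcttc
An NF-Y box was found in 18 of the 24 members (75.0%, against 39.7% of all) and a GC box in 23 (95.8%, against 48.3% of all). A gene was counted if any of its promoters held the string. The 27305 genes include genes not tested in these cells, while all members were tested. Whether the higher shares are particular to sterol genes was not tested. DHCR7, HMGCS1, MVD and SREBF2, which fell, held NF-Y boxes, and so did MVK, MSMO1 and INSIG1, which did not fall. A further promoter of DHCR7 and of HMGCS1 held no NF-Y box. SREBF1, INSIG2 and SCAP held none. A match is a string of letters, not a measured binding site, and other forms of the sterol element were not searched. INSIG1, named above as a target gene of the SREBPs, did not hold the sterol string searched.

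A further list of 39 genes of sterol and lipid supply gave 2 that fell and 1 that rose. These are 5.13% and 2.56% of the list, against 6.7% and 5.38% of all tested genes, and the list's median log2 fold change was -0.02. TMEM97, a sterol-regulated membrane protein that binds NPC1, stood at 94.3, 95.1 and 105 CPM in the control and at 81.0, 83.3 and 76.1 CPM with miR-34a. Its log2 fold change was -0.29 ± 0.07 (SE), edgeR adjusted p = 0.0065, and adjusted p = 0.075 without control replicate 3. TMEM97 held a 7mer-m8 in the 3′ UTR.

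MBTPS2, the site-2 protease that frees the SREBPs from the membrane, rose. It stood at 63.1, 64.8 and 62.0 CPM in the control and at 82.5, 82.4 and 87.3 CPM with miR-34a, far beyond the spread within either group. The log2 fold change was 0.41 ± 0.07 (SE), edgeR adjusted p = 0.00014. MBTPS1, the site-1 protease that cuts before it, stood at 156 to 161 CPM in the control and at 160 to 173 CPM with miR-34a, with a log2 fold change of 0.09 ± 0.07 (SE), edgeR adjusted p = 0.48. The ratio of MBTPS2 to MBTPS1 was 0.389 to 0.415 in the control and 0.477 to 0.514 with miR-34a (exact two-sided permutation p = 0.1, the smallest possible here, and p = 0.15 adjusted over 3 ratios). FADS2, a fatty acid desaturase, lay just outside the threshold with a log2 fold change of -0.21 (edgeR adjusted p = 0.0503). ACLY, ACACA and ELOVL6, which supply and extend fatty acids, had log2 fold changes of -0.05, 0.06 and -0.08 and did not pass.

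The falls of DHCR7, HMGCS1, SREBF2 and MVD passed in all 6 fits that left out 1 library. Their log2 fold changes there ran from -0.76 to -0.71, -0.55 to -0.47, -0.48 to -0.40 and -0.47 to -0.35.

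**Figure D5:**
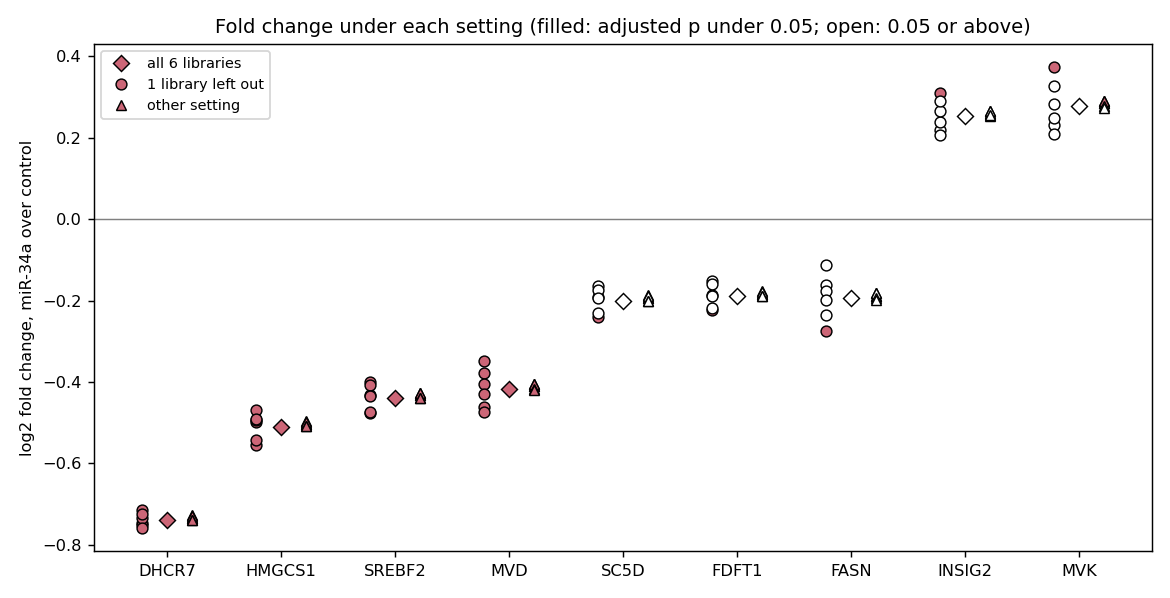
Log2 fold change, miR-34a over control (vertical axis), of 9 members with all 6 libraries (diamonds), with 1 library left out (circles) and with another normalization, filter, test or the replicate block (triangles). Filled symbols have an adjusted p under 0.05. DHCR7, HMGCS1, SREBF2 and MVD are filled throughout, and each of the other 5 passes in 1 of the 6 fits that leave out a library.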

How the data were processed

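The authors deposited a table of raw counts, with Ensembl genes in rows and libraries in columns. The submitters' processing notes name STAR 2.7.11a, featureCounts of Subread 2.0.3 and edgeR 3.42.4, on GRCh38. For the annotation release, the strand setting and shared reads, nothing is stated (not given in the sources used here); the TruSeq kit in the labels does not mark strand. Genes were kept with filterByExpr (minimum count 10, minimum total 15), scaled by TMM and fitted by group in edgeR 4.0.16, quasi-likelihood (limma 3.58.1, R 4.3.3). DESeq2 1.42.0 was an alternative. The p-values measure the spread among these 6 libraries only. Chi-square per degree of freedom between libraries of a group was 7.64 to 14.3, so none looked deposited in duplicate.

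The members and lists were chosen with earlier results of these data known. All members are reported; members past the threshold and the 5 SREBP control genes get every library's value. One result of the further list is not reported here. RPKM uses merged exon lengths of GENCODE release 29. Seed matches were searched in the transcript with the longest coding sequence, and 3′ UTRs under 50 nt were not classed. Duplex energies are from RNAduplex 2.7.2. On simulated counts (17397 genes tested) the fit recovered 94% of 100 genes changed 1.5-fold and 100% of 100 changed 2-fold. Of its calls 5.83% were false. The simulation gave all genes a single spread, so these rates need not hold for the real libraries. Smaller changes were not simulated, and the falls of HMGCS1 (1.42-fold), SREBF2 (1.36-fold) and MVD (1.34-fold) are of that size. The alternatives were other size factors, filters and tests, a replicate block and leaving out each library.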

Additional observations from a re-analysis of the deposited data

How the results depend on the processing

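The count of members that fell was 4 and stayed at 4 to 6 under every alternative run. The count that rose was 0, and became 2 with DESeq2 size factors in edgeR, 1 with no filter, 1 with a filter at 1 CPM and 0 to 1 with single libraries left out; these were MVK and INSIG2. Of the other sterol and lipid genes 2 fell, and 0 to 3 with single libraries left out: 3 without control replicate 1, 0 without control replicate 3, and 1 without control replicate 2, miR-34a replicate 2 or miR-34a replicate 3. Over all tested genes 1167 fell and 938 rose. Without control replicate 1 these counts were higher, at 1394 and 1287, and without miR-34a replicate 2 they were 727 and 604. Those that rose numbered 525 without control replicate 2 and 606 without control replicate 3. The cause of these shifts was not tested. Log2 fold changes that changed sign belonged to members near 0 that never passed: with single libraries left out, SQLE ran from -0.0785 to 0.0342, CYP51A1 from -0.0451 to 0.119, HSD17B7 from -0.0134 to 0.114, INSIG1 from -0.00804 to 0.0731 and NPC1 from -0.0334 to 0.0688. With 7mers and 8mers counted in any coding transcript's 3′ UTR, 8 members held one in place of 4. That is 28.6% of the 28 members, against 25.9% of 12951 classed genes. The labels do not say that the replicate numbers pair libraries. Deviations of same-numbered libraries from their group means correlated at -0.03, 0.02 and -0.08. With 3 libraries per group these correlations cannot decide whether libraries were paired. With the replicate block, 4 members fell and 0 rose, and 1023 genes fell and 807 rose over all tested genes. CYP51A1 had 127 to 182 counts per library and a standard error of 0.16. The same-strand gene that overlaps it had 0 counts in all 6 libraries. A low level of CYP51A1 and shared reads counted for neither gene cannot be told apart.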

Other observations

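DHCR7 also has an annotated coding transcript that ends further downstream, and its 3′ UTR holds an 8mer to miR-34a-5p at chr11:71428221-71428228 (GRCh38, minus strand), 595 nt after that transcript's own stop codon. Counts per gene do not separate the transcripts. The 8mer of SREBF2 described above lies in the 3′ UTR of another annotated transcript, 1450 nt after an earlier stop codon, and in the coding sequence of the longer form. SREBF2 and SREBF1 carry the microRNA genes MIR33A and MIR33B in their introns. In these libraries, which were not made for small RNAs, the rows of MIR33A and MIR33B held 0 to 2 counts each, so nothing can be said of them at this depth.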
